A study of Arabidopsis thaliana with 12 samples.

Results

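MYB3, MYB4, MYB6, MYB7, MYB8 and MYB32 are close relatives within the R2R3-MYB family of plant transcription factors, and MYB4 is the best known of them as a repressor of phenylpropanoid genes. The 6 genes were taken as a family, by their identifiers, and were looked up in deposited count tables for H2A.Z, a variant of histone H2A, and for H3K27me3, the trimethylation of lysine 27 of histone H3. All 6 had a row in the H2A.Z table, which covers 22249 genes in 24960 regions, and each had exactly 1 region. In the H3K27me3 table, with 8286 genes in 8663 regions, 0 of the 6 had a row. Either table held 22870 genes in all.

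Whole rosettes of *Arabidopsis thaliana*, ecotype Col-0 and 21 days old, supplied the chromatin, from plants either wild type or *ref4-3*, grown on soil in long days. *ref4-3* is a single mutant line in which a point mutation alters MED5b, a subunit of the tail of Mediator, the complex that links transcription factors to RNA polymerase II. The growth and harvest described are the same for both genotypes. The mutation cannot be checked from these counts. Each genotype had 2 biological replicates per mark.

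Phenylpropanoids are made from phenylalanine and include lignin, flavonoids and, in Arabidopsis leaves, sinapoylmalate, a sunscreen against ultraviolet B. R2R3-MYB factors of this branch bind AC-rich elements in promoters and, in several members, carry a repression motif near their end. They act as brakes on the pathway, while other MYB factors switch it on. H2A.Z replaces the usual H2A in nucleosomes near the start of many genes and within the bodies of genes that respond to the environment. H3K27me3 is laid down by Polycomb proteins over genes that are kept off in a tissue.

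MYB4 represses *C4H*, the gene of an early enzyme of the pathway, and is itself lowered by ultraviolet B. MYB7 is a repressor of flavonol genes, and MYB32 is best known from pollen development. MYB3 represses *C4H* as well and works with the LNK1 and LNK2 cofactors. The annotation lists MYB8 under the name HOS10.

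The first coding bases of the 6 genes are shown because they open the DNA-binding domain that makes these genes a family, and because they lie inside the H2A.Z region of 5 of the 6 genes. Each line gives 60 bases of the coding strand from the start codon in the TAIR10.1 assembly, with a capital wherever the base is the same as in *MYB4*.
MYB4: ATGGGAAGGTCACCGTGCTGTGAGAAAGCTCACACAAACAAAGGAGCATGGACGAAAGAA
MYB3: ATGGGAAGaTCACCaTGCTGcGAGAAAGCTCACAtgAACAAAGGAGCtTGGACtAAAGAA
MYB6: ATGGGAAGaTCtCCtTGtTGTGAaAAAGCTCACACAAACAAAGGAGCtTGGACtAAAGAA
MYB7: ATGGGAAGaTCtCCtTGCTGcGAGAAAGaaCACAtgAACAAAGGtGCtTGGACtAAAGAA
MYB8: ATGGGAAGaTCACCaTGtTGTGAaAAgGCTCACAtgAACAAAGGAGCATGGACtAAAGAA
MYB32: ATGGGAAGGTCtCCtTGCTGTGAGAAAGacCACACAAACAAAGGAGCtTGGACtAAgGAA

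Between 49 (*MYB7*) and 53 (*MYB3*, *MYB6* and *MYB32*) of these 60 bases matched *MYB4*. Over the first 300 coding bases the identity of a pair ranged from 71.3%, for *MYB8* and *MYB32*, to 88.7%, for *MYB6* and *MYB8*. None of the 6 H2A.Z regions had a copy elsewhere in the genome at 95% identity over at least 100 bp. The stretch most like the *MYB8* region was 86.7% identical over 742 bp.

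The H2A.Z regions lay inside the genes and began past the start site in each case. At *MYB3* (AT1G22640, chr1:8006064-8007465, plus strand) the region chr1:8006201-8007200 began 137 bases past the annotated start site and touched all 3 exons, and 75.5% of it was coding. At *MYB4* (AT4G38620, chr4:18053360-18055040, plus strand) the region chr4:18053801-18054800 began at 441 bases, touched both exons and was 77.3% coding. *MYB6* (AT4G09460, chr4:5992908-5994258, plus strand) had a shorter region, chr4:5993001-5993600, in which the intron took 51.5% and coding sequence 45.5%.

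On the minus strand, *MYB7* (AT2G16720, chr2:7255473-7256831) carried H2A.Z at chr2:7256001-7256600, from 231 to 830 bases past its start site, and *MYB32* (AT4G34990, chr4:16661101-16662549) at chr4:16661601-16662400, from 149 to 948 bases. Coding sequence made up 79.7% and 74.3% of these regions. The region contained the start codon at 5 of the 6 genes.

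*MYB8* (AT1G35515, chr1:13077890-13080265, plus strand) was the exception. Its region, chr1:13078601-13079400, was 100% intronic and lay in the second intron, which at 1622 bases is the longest intron of the 6 genes. The annotation places another gene on the same strand inside this intron, AT1G35516 at chr1:13078416-13079773, described as myb-like. Both genes have a row with the same 800 bp region and identical fragment counts, so H2A.Z on *MYB8* and on the nested gene cannot be told apart. The 150 bases below, chr1:13078855-13079004 on the plus strand, come from the shared region, with the coding bases of AT1G35516 in capitals.
MYB8 second intron: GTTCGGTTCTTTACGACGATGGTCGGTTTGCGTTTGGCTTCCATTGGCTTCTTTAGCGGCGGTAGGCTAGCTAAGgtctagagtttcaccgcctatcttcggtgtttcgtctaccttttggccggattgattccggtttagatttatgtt

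**Figure D1:**
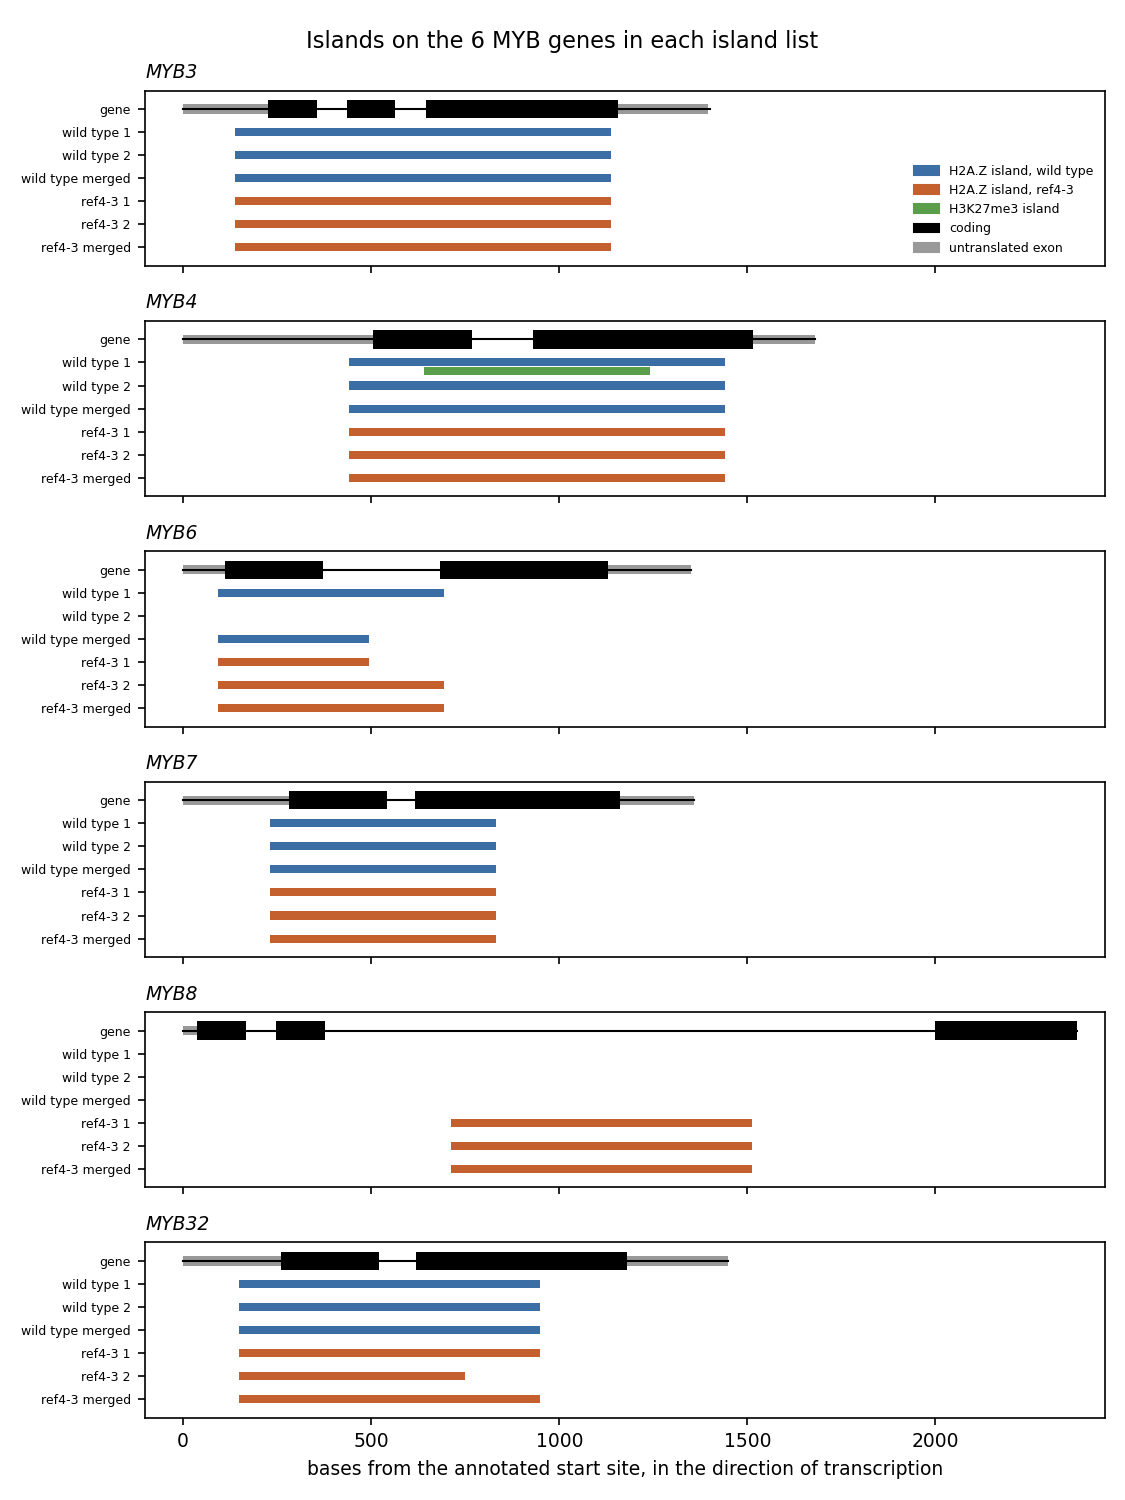
Islands, the enriched stretches called by the authors, drawn on the 6 genes against the distance in bases from the annotated start site in the direction of transcription, with 1 row for each replicate list and each merged list of wild type (blue, H2A.Z) and *ref4-3* (orange, H2A.Z). Black boxes are coding sequence, grey boxes untranslated exons and the green bar an H3K27me3 island, which stood on *MYB4* alone and in wild-type replicate 1 alone, while *MYB8* had H2A.Z islands in the *ref4-3* lists only.

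The 4 H2A.Z libraries held between 7848342 and 10128759 fragments inside regions, and the median region had 233 to 299 fragments per library. The 4 H3K27me3 libraries held between 5805781 and 8466471. At the 6 genes, counts between 136 and 376 fragments give a counting error of 5.16% to 8.57% per value, which covers sampling of fragments only. As a check of the tissue, the flower and seed regulators *AG*, *LEC1*, *LEC2* and *FUS3*, off in leaves, all had an H3K27me3 row, but so did 2 of 3 leaf genes, *RBCS1A* and *LHCB1.3*. The levels given per kb are CPM divided by the region length in kb. Between genes of unlike region length this is a rough measure. Fragments that reach past a region count whole, which raises short regions more, and input was not subtracted. CPM are counts scaled to the fragments of a library inside regions with trimmed-mean (TMM) factors. The scaling sets the typical region to no change, and whether a rosette has fewer cells with H2A.Z at a gene or less H2A.Z per cell cannot be told apart.

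H2A.Z was called higher in *ref4-3* at *MYB3* and at the region of *MYB8*, and was not called at the other 4 genes. The *MYB8* region is in the table only through islands of *ref4-3*, since no wild-type list has one there, so its higher count was favoured by the way regions were chosen and is given as a description. The call was edgeR's exact test at a Benjamini-Hochberg adjusted p (FDR, over all 24960 regions) below 0.05 together with a change above 1.2-fold. Of all regions 4.28% were called, 2.65% as higher and 1.63% as lower, beside 2 of 6 here, or 1 of 5 without *MYB8*. The groups did not overlap at 3 of the 6 genes, *MYB3*, *MYB4* and *MYB8*, and at 48.2% of all regions (24.0% with *ref4-3* above and 24.2% with *ref4-3* below). The median log2 fold change over the 6 genes, *MYB8* included, was 0.098, against −0.00062 over all genes of the table. The part of *MYB8* in this median and in the count without overlap was favoured by the way regions were chosen. Both calls rested on the particular libraries, since leaving out either wild-type library or *ref4-3* replicate 1 left 0 of them, leaving out *ref4-3* replicate 2 kept both, and DESeq2 called 0. At an unadjusted p below 0.05, 3 of the 6 regions, that of *MYB8* among them, passed in edgeR and 1 in DESeq2, as did 18.3% and 5.03% of all H2A.Z regions.

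At *MYB4*, 367 and 357 fragments were counted in the wild-type libraries, against 284 and 244 with *ref4-3*. Per kb, the level was 40.6 and 35.4 in wild type (38.0 ± 3.67, SD, n = 2) and 31.7 and 31.2 in *ref4-3* (31.5 ± 0.394, SD, n = 2). Both *ref4-3* libraries lay below both wild-type libraries. The log2 fold change of −0.27 (SE 0.093, 95% interval −0.45 to −0.085) missed the call, with an FDR of 0.0642 in edgeR's exact test. In DESeq2 the adjusted p was 0.9999. The log2 fold change stayed negative with each library left out in turn, from −0.37 to −0.17. *MYB4* was therefore not called lower, although it lay in the lowest 3.45% of log2 fold changes.

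*MYB3*, which shares the target *C4H* with MYB4, had a change of the opposite sign. It had 280 and 341 wild-type fragments and 376 and 287 from *ref4-3*, which gave levels of 31.0 and 33.8 per kb (32.4 ± 2.01, SD, n = 2) against 42.0 and 36.7 (39.3 ± 3.78, SD, n = 2). Both *ref4-3* levels were above both wild-type levels. The log2 fold change was 0.28 (SE 0.091, 95% interval 0.10 to 0.46, FDR 0.0463 in edgeR's exact test), or 1.22-fold, just past both thresholds. Without *ref4-3* replicate 1 it was 0.18, and without *ref4-3* replicate 2 it was 0.37.

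The ratio of *MYB3* to *MYB4* fragments in 1 library does not depend on the scaling of libraries. Wild type had ratios of 0.763 and 0.955, and *ref4-3* of 1.32 and 1.18, so *MYB4* had more fragments in both wild-type libraries and *MYB3* had more in both *ref4-3* libraries, over regions of the same length. The difference was 0.55 on the log2 scale. This pair was picked after its values were seen, and the two-sided exact permutation p of 0.333 is the smallest that 2 libraries against 2 can give.

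At *MYB8* the wild-type libraries held 175 and 177 fragments, and the *ref4-3* libraries 237 and 177. The levels per kb were 24.2 and 21.9 (23.1 ± 1.60, SD, n = 2) and 33.1 and 28.3 (30.7 ± 3.42, SD, n = 2). The *ref4-3* libraries were both higher, with replicate 1 the higher of them. The log2 fold change was 0.42 (SE 0.117, 95% interval 0.19 to 0.65, FDR 0.0157 in edgeR's exact test), or 1.34-fold. Among the 209 regions that, like this one, had islands in both *ref4-3* replicate lists and the merged *ref4-3* list and in no wild-type list, 48.3% were called higher and the median log2 fold change was 0.39, so the value at *MYB8* was near that of regions chosen the same way. It ranged from 0.30 to 0.53 with 1 library left out, and it belongs to the nested gene AT1G35516 as much as to *MYB8*.

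At *MYB7* the wild-type libraries had 239 and 244 fragments and the *ref4-3* libraries 220 and 154, or 44.0 and 40.3 against 41.0 and 32.8 per kb. The genotypes overlapped, and the log2 fold change of −0.18 (95% interval −0.40 to 0.038) had an FDR of 0.393 in edgeR's exact test. *MYB32* gave 257 and 263 wild-type and 302 and 190 *ref4-3* fragments, or 35.5 and 32.6 against 42.2 and 30.3 per kb. Its *ref4-3* replicates enclosed both wild-type values, and the log2 fold change of 0.11 (95% interval −0.098 to 0.31, FDR 0.699) turned to −0.16 without *ref4-3* replicate 1.

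*MYB6* had the lowest counts, with 166 and 156 wild-type and 165 and 136 *ref4-3* fragments. Its wild-type levels of 30.6 and 25.8 per kb overlapped those of *ref4-3*, 30.7 and 29.0. The log2 fold change was 0.090 (95% interval −0.16 to 0.34, FDR 0.823 in edgeR's exact test) and became −0.034 without wild-type replicate 2. For these 3 genes the intervals leave room for changes of the size called at *MYB3* in 1 direction.

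**Figure D2:**
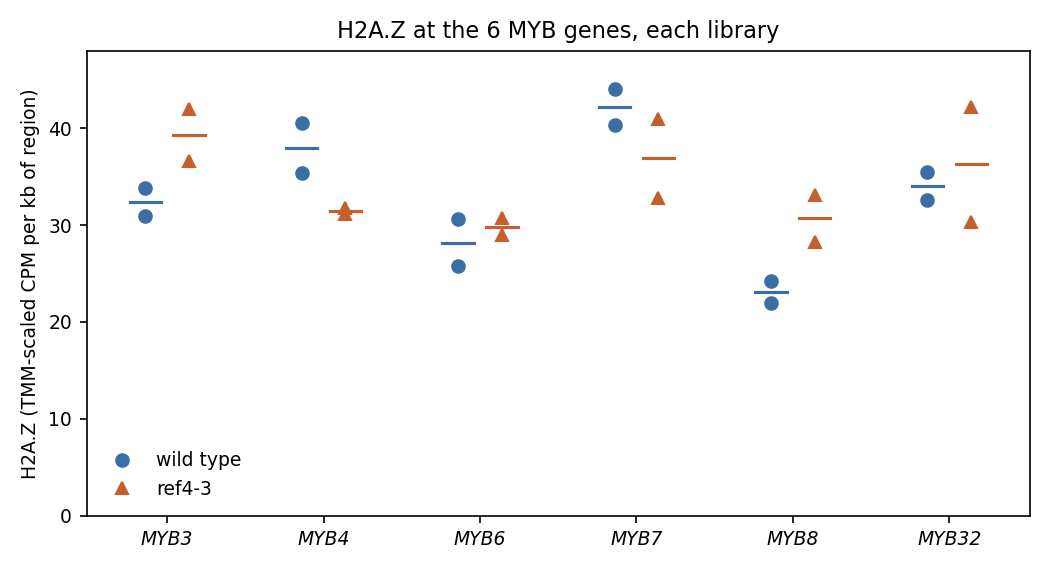
H2A.Z level of each gene in TMM-scaled CPM per kb of region, with a point for each library (blue circles wild type, orange triangles *ref4-3*) and a bar for the mean of 2. The genotypes are apart at *MYB3*, *MYB4* and *MYB8* and overlap at *MYB6*, *MYB7* and *MYB32*.

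In wild type the order of levels per kb was *MYB7*, *MYB4*, *MYB32*, *MYB3*, *MYB6* and *MYB8*. From *MYB7* to *MYB3* the replicate values of each gene overlapped those of the next, while *MYB3* and *MYB6*, and *MYB6* and *MYB8*, did not overlap. Against all regions, the wild-type level of *MYB7* was at percentile 66.7, *MYB4* at 52.7, *MYB32* at 36.6, *MYB3* at 29.2, *MYB6* at 12.1 and *MYB8* at 1.53. The *MYB8* region is in the table only through islands of *ref4-3*. Its low wild-type rank was therefore favoured by the way regions were chosen and is given as a description. In *ref4-3* the order by mean was *MYB3*, *MYB7*, *MYB32*, *MYB4*, *MYB8* and *MYB6*, and every gene overlapped the next.

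**Figure D3:**
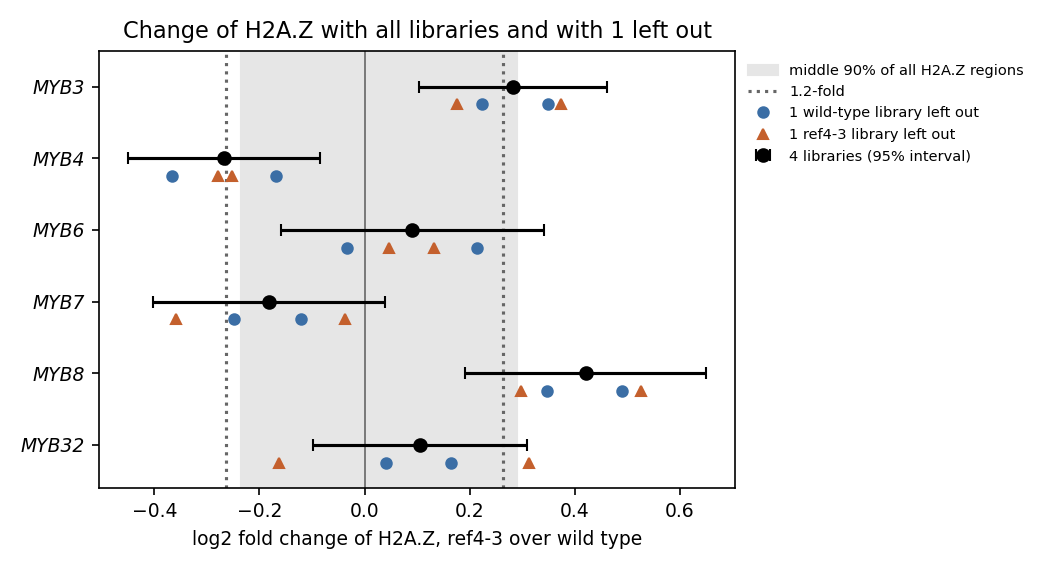
Log2 fold change of H2A.Z in *ref4-3* over wild type at each gene, with black points and 95% intervals from all 4 libraries, and below them the values with 1 wild-type (blue circles) or 1 *ref4-3* library (orange triangles) left out. The grey band holds the middle 90% of all H2A.Z regions and the dotted lines mark 1.2-fold, and *MYB6* and *MYB32* change sign in 1 setting each.

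The island lists, called by the authors in each replicate without the joint regions, give a second view of the same libraries. *MYB3*, *MYB4*, *MYB7* and *MYB32* lay in an H2A.Z island in all 4 replicate lists, as did 76.7% of regions. *MYB6* lacked an island in wild-type replicate 2 and was in the 3 others, a count shared by 8.23% of regions. *MYB8* had an island in both *ref4-3* replicates and in the merged *ref4-3* list but in no wild-type list. That pattern, which selects for higher *ref4-3* counts, occurred at 209 of the 24960 regions, or 0.837%, and 101 of the 209 were called higher. The nearest wild-type island ended 490 bases upstream of *MYB8*.

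The absence of a wild-type island on *MYB8* does not mean an absence of fragments, since its wild-type libraries had 175 and 177. Island scores rank the enrichment of an island within its own list. They come from the same libraries as the counts, and the lists differ in length and content, so the percentiles are given as a description and not as a measure of change. The *MYB4* island was at percentiles 61.6 and 44.7 of the wild-type lists and at 21.5 and 12.5 of the *ref4-3* lists. The *MYB3* island was at 13.1 and 23.9 in the wild-type lists and at 54.7 and 49.9 in those of *ref4-3*. *MYB7* was the highest in the wild-type lists, at 80.2 and 77.9, and stood at 34.4 and 37.7 in *ref4-3*, apart from the wild-type lists although its counts overlapped. The *MYB32* island had 25.0 and 26.0 in the wild-type lists and 66.0 and 8.32 in the others, the widest spread between replicates.

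**Figure D4:**
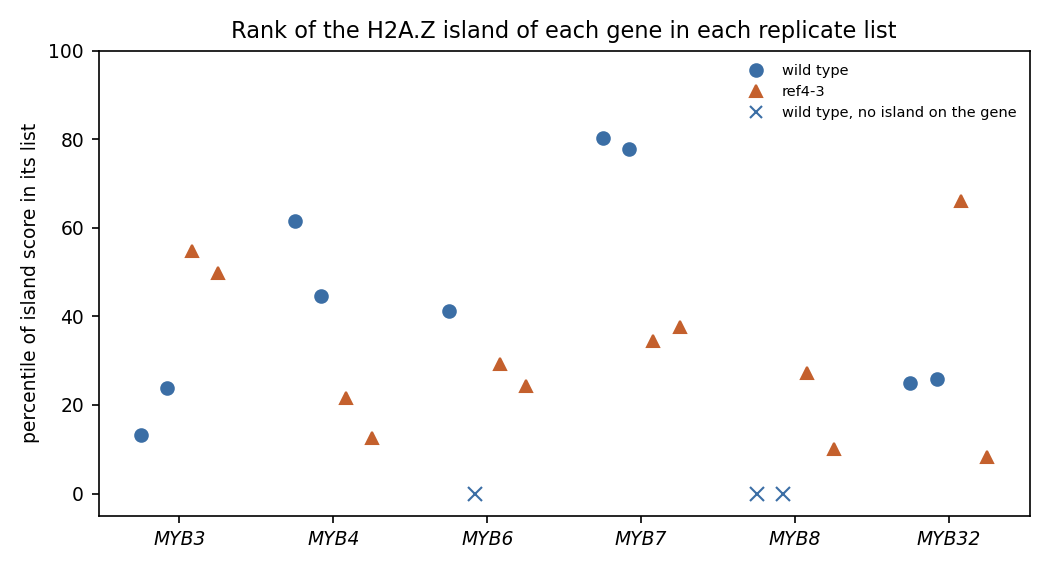
Percentile of the H2A.Z island score of each gene within its replicate list, with blue circles for wild type, orange triangles for *ref4-3* and crosses at 0 where a wild-type list had no island on the gene. *MYB3* sits higher in both *ref4-3* lists, *MYB4* and *MYB7* sit lower, and *MYB32* has both the highest and the lowest of its values in *ref4-3*.

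Hardly any H3K27me3 was called at the 6 genes. None of the 6 genes had 200 bp or more inside the merged islands of either genotype, which is why the count table holds no row for them. No change between genotypes could therefore be measured from the counts. H3K27me3 under the threshold of the island caller would not be seen here. Among the 110 other genes with a MYB number, 79 (71.8%) had an H3K27me3 row and 104 (94.5%) an H2A.Z row. All 6 genes here had an H2A.Z row without an H3K27me3 row. So did 26 of those 110 (23.6%) and 48.5% of the 27444 protein-coding genes.

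*MYB4* was the only one of the 6 with any H3K27me3 island, in wild-type replicate 1 alone. The island, chr4:18054001-18054600, was 600 bp long, lay within the H2A.Z region from 641 to 1240 bases past the start site, and had a score at percentile 3.98 of its list. It was absent from wild-type replicate 2, both *ref4-3* replicates and both merged lists. Islands of that list that touch none of the other 5 were rare, at 11 of 7230 (0.152%), and 16 of the 20353 protein-coding genes without a row (0.0786%) had an island in this replicate alone. One island in 1 of 2 wild-type replicates gives no comparison between genotypes. By visual inspection of tracks normalized to input, which were not examined here, the paper describes less H3K27me3 at *MYB4* in *ref4-3*. The central 250 bases of this island, chr4:18054176-18054425 on the plus strand, are printed with coding bases in capitals and span the end of the intron and the start of the second exon.
MYB4 island centre: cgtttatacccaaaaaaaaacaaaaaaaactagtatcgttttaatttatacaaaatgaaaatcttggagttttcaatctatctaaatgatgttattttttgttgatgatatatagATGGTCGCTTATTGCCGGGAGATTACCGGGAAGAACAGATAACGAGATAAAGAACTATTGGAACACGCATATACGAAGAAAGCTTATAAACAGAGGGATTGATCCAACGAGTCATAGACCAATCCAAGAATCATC

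The distance to the nearest H3K27me3 island of the merged lists was the same in both genotypes at *MYB3* (16864 bp), *MYB8* (14490 bp) and *MYB7* (1073 bp). At *MYB4* it was 13360 bp in wild type and 41561 bp in *ref4-3*, at *MYB6* 8308 and 6108 bp, and at *MYB32* 5852 and 6901 bp. Taking the nearer genotype, the median over the 20353 protein-coding genes without an H3K27me3 row was 4547 bp, with the middle 50% between 1313 and 10557 bp. *MYB3*, *MYB4* and *MYB8* thus lay farther from the merged islands than most such genes, and *MYB7* nearer.

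MYB factors of this group recognise AC elements, so these were looked for in the 250 bases before each start site and in the H2A.Z regions, on both strands, as the element ACCTACC, its variant ACCAACC and the longer form ACCTAACC. The 3 genes with a match are shown with the matched letters in capitals, plus strand, TAIR10.1.
MYB6 upstream, chr4:5992826-5992882: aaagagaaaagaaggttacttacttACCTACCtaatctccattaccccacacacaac
MYB8 upstream, chr1:13077763-13077819: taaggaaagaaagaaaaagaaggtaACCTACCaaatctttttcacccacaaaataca
MYB3 upstream, chr1:8006031-8006063: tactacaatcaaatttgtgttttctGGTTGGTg

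ACCTACC began 57 bases before the start site of *MYB6* and 102 bases before that of *MYB8*, and was present before 1.16% of 27443 genes. ACCAACC, on the other strand, began 8 bases before the start site of *MYB3* and was present before 2.69% of genes. The upstream stretches of *MYB4*, *MYB7* and *MYB32* held none of the 3 elements, and neither did any of the H2A.Z regions. By element and length, 1.66% to 15.5% of regions of the same lengths held a match. The G-box CACGTG and the telobox AAACCCTA had no match in the windows searched at the 6 genes. The G-box was present before 6.49% of genes and in 6.60% to 13.9% of regions of these lengths. For the telobox the shares were 4.49% of genes and 16.0% to 16.9% of regions. The repeat GAGAGAGA had 3 matches in the region of *MYB8* and 5 in that of *MYB32*, with matches that overlap each other counted, and 26.7% of the 1851 regions of 800 bp held at least 1. A match is a string of letters and not a measured site.

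By Euclidean distance of log2 levels per kb over the 4 H2A.Z libraries, the MYB genes most like *MYB4* among 108 candidates were *MYB120* (0.127), *MYB121* (0.139) and *MYB26* (0.190). The other 5 genes were less alike, with *MYB7* at rank 43, *MYB32* at 49, *MYB3* at 80, *MYB6* at 82 and *MYB8*, which was not a candidate by name, at 103. *MYB120*, with 37.9 and 36.2 per kb in wild type against 30.2 and 31.6 in *ref4-3*, was called lower. Its log2 fold change was −0.26 (FDR 0.0131 in edgeR's exact test). The distance used the libraries of both genotypes, so a change close to that of *MYB4* was favoured by the choice. The value at *MYB120* is therefore given as a description. Of the 104 other MYB genes with an H2A.Z row, 4 were called lower (*MYB120*, *MYB47*, *MYB74* and *MYB95*) and 1 higher (*MYB13*), with a median log2 fold change of −0.049. Over all genes with an H2A.Z row, 1.79% were called lower and 2.90% higher. DESeq2 called 0 of the 104. At an unadjusted p below 0.05, 19 of the 104 passed in edgeR and 5 in DESeq2, beside the 18.3% and 5.03% of all H2A.Z regions.

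Genes that work with these repressors were examined as lists, by gene. Of 8 partners and co-repressors, which include the bHLH factors EGL3, GL3 and TT8, the LNK1 and LNK2 cofactors and SAD2, the importin that brings MYB4 into the nucleus, 7 had an H2A.Z row and 3 an H3K27me3 row, and edgeR's exact test called 0 for either mark. At an unadjusted p below 0.05, 3 of 7 passed for H2A.Z and 1 of 3 for H3K27me3 in edgeR, against 18.3% and 35.2% of all regions. In DESeq2 0 of 7 and 1 of 3 passed that cutoff, against 5.03% and 17.2% of all regions. These shares count regions and not genes. After adjustment DESeq2 called 0 for either mark. Of 12 MYB activators of the pathway, 11 had an H2A.Z row with 0 called (1 at an unadjusted p below 0.05, 0 called by DESeq2), and 10 an H3K27me3 row with *MYB75*, the anthocyanin activator, called lower (log2 fold change −0.33), which DESeq2 did not call. An H3K27me3 row was thus found for 10 of 12 activators and 0 of 6 repressors. The share was 25.8% over all protein-coding genes and 71.8% over the 110 other genes with a MYB number. The lists were chosen with earlier results known, and the difference between them was not tested.

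Of 21 phenylpropanoid enzyme genes, 20 had an H2A.Z row. *PAL1*, the entry enzyme (log2 fold change −0.40), and *UGT84A2*, a sinapate glucosyltransferase (−0.41), were called lower in H2A.Z, and *CSE* (0.50) and *CAD4* (0.35), which act in lignin synthesis, were called higher, and DESeq2 called 1 of the 20. The background was 1.79% of genes called lower and 2.90% called higher. At an unadjusted p below 0.05, 10 of the 20 genes passed edgeR's exact test and 5 passed in DESeq2. The shares of all H2A.Z regions were 18.3% and 5.03%, which count regions and not genes. *C4H*, the target of MYB4, had an H2A.Z row that was not called and no H3K27me3 row. For H3K27me3, 8 of the 21 genes had a row, 2 were called lower, *UGT84A2* (−0.83) and *4CL3* (−0.30), and 3 higher, *PAL1* (0.40), *4CL5* (0.39) and *4CL2*, where 2 regions were called (0.48 and 0.59). DESeq2 called 2 of these 5 genes. Of all genes with a row 7.70% were called lower and 5.52% higher. Of 8 flavonoid enzyme genes all had an H2A.Z row, with 0 called (1 at an unadjusted p below 0.05, 0 called by DESeq2), and 5 had an H3K27me3 row, with *F3'H* called lower (log2 fold change −0.43).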

How the data were processed

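Wild-type and *ref4-3* rosettes were profiled by ChIP-seq with 2 biological replicates per genotype and mark. The 4 input samples were not analysed here. Per the labels and the study's methods, the authors trimmed reads with fastp 0.23.2, mapped them to TAIR10 with Bowtie2, kept proper pairs with SAMtools 1.17 and called islands with epic2 (bins and gaps of 200 bp), per replicate and on merged replicates. The deposited counts are fragments per region, a region being the part of a gene, at least 200 bp, inside the joined merged islands. They are neither normalized nor corrected for input, strand was ignored, and overlapping genes were each counted. The deposited island lists give coordinates, a score, used only for ranks within a list, and a −log10 value that was not used because its kind of p is not given in the sources used here.

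The study's test was kept: edgeR 4.0.16 in R 4.3.3, TMM factors, dispersions from the genotypes, exact test over all regions, FDR below 0.05 and fold change above 1.2, with no filter. Intervals are the log2 fold change ± 1.96 SE. The SE is not an output of edgeR but was computed from the counts with the fitted dispersions taken as known. With 2 libraries per group the intervals may therefore be too narrow. On counts simulated for the 24960 H2A.Z regions, the fit recovered 90% of 100 regions changed 1.5-fold and 100% of 100 changed 2-fold. It called 0.0242% of unchanged regions. The counts were simulated with the dispersions fitted to these same libraries, so both rates hold only if those dispersions are right. Changes near 1.2-fold were not simulated. Annotation, names and sequence came from RefSeq's TAIR10.1, in which all regions lay inside their genes. Copies were searched with blastn 2.17.0.

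Named genes are the 6 MYB genes, called genes of the lists, and the 3 MYB genes nearest to *MYB4*. The 6 genes and all lists were chosen with earlier results of these data known. DESeq2 1.42.0, edgeR's quasi-likelihood test, other scalings, filters and thresholds, a replicate block and leaving out each library were the alternatives.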

Additional observations from a re-analysis of the deposited data

How the results depend on the processing

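The number of the 6 genes called for H2A.Z, 2 with all libraries, ranged from 0 to 2 with 1 library left out, and was 0 with DESeq2 (adjusted p 0.999 at *MYB3* and 0.867 at *MYB8*) and 0 at a fold change threshold of 1.5. It was 2 with edgeR's quasi-likelihood test, library totals, DESeq2 size factors, a mean count of at least 100 and no fold threshold. Over all H2A.Z regions, 1068 calls became 33 with DESeq2, 119 at 1.5-fold and 181 to 1124 with 1 library left out. For H3K27me3, 1123 calls became 413, 193 and 647 to 1458, and 2050 without a fold threshold. At an unadjusted p below 0.05, 4574 H2A.Z regions (18.3%) passed edgeR's exact test. The log2 fold change ranged with 1 library left out from −0.034, without wild-type replicate 2, to 0.21 at *MYB6*, and from −0.16, without *ref4-3* replicate 1, to 0.31 at *MYB32*, and neither gene was called in any setting. With 1 library left in a group, its spread was taken from the other genotype. The H3K27me3 calls had no values for the 6 genes, which have no row. An H3K27me3 island stood on 1 of the 6 genes in the wild-type replicate 1 list alone and on 0 in the other lists. H2A.Z islands stood on 4 to 6 of the 6 genes in each list. The deviations of same-numbered libraries correlated at −0.025 for H2A.Z and 0.072 for H3K27me3. Whether same-numbered replicates were grown or processed together is not stated in the sources used here, and these values cannot decide it. A replicate block in the quasi-likelihood fit called 2 of the 6 genes, 1022 H2A.Z regions and 1194 H3K27me3 regions. With 2 libraries per group and 136 to 376 fragments per value, changes near 1.2-fold are at the limit of what these counts resolve.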
